A study of Mus musculus with 10 samples.

Results

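The genes described here are 8 genes of ketogenesis and fatty acid oxidation, chosen by name from the 47069 genes of the count table: *Cpt1a*, *Acadm*, *Acadl*, *Ehhadh*, *Pdk4*, *Angptl4*, *Plin2* and *Creb3l3*. All 8 were found, 1 row each, and all 8 passed the filter on low counts that left 16179 genes to test. The 8 genes cover the breakdown of fatty acids and its control. None of them encodes an enzyme that itself makes ketone bodies, so a list of genes of ketone body synthesis and use is given beside them.

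RNA-seq was performed on intestinal organoids, which are crypts grown in Matrigel, with 2 libraries in each of 5 groups, 10 libraries in all. Per the study's methods the mice were *Lgr5-EGFP-CreERT2; Ppp2r1a flox/flox*, and the strain label is C57BL/6. Every library came from a culture of 50 days in medium with Noggin, EGF and R-spondin 1. The control had saline, the DMBA group DMBA (dimethylbenzanthracene, a carcinogen), TAM short and TAM long had tamoxifen, and DMBA+TAM had both agents. Tamoxifen switches on the Cre recombinase, which the *Lgr5* promoter makes in crypt stem cells, to remove exons 5 to 6 of *Ppp2r1a*, a scaffold subunit of the phosphatase PP2A, and cells that neither make the Cre nor descend from such cells keep the gene. What short and long stand for is not given in the sources used here, and the label of DMBA also says Long. Whether the 2 libraries of a group came from separate cultures or animals is not given either, so p-values measure the spread between these libraries, which may be technical. The fit shares its estimate of that spread over all 5 groups, so each p-value also rests on libraries outside its comparison. The chi-square per degree of freedom between replicate counts, which also grows with depth, was unequal. It was 67.05 in DMBA, 23.2 in TAM long, 7.21 in control, 5.57 in TAM short and 6.29 in DMBA+TAM.

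Several features of the series bear on every value below. The libraries held from 8828247 to 10923673 counts in 4 groups and 1592366 and 1915270 counts in DMBA+TAM. *Ppp2r1a* was at 123 to 169 normalized CPM (counts relative to the TMM-scaled library total) in all 10 libraries and was not lower in any tamoxifen group than in control. Its counts are sums over all exons, so the deletion cannot be read from them. Groups were taken from the labelled protocol, and the titles of the libraries name them differently. Control is titled NS, DMBA is NL, TAM short is DSS_S, TAM long is DSS_L and DMBA+TAM is Lgr5, with neither agent in any title and DSS not explained for these libraries in the sources used here, so the agent of each group rests on the protocol label alone. The titles thus share a letter S between control and TAM short and a letter L between TAM long and DMBA, and DMBA+TAM has neither. The 10 small intestine markers summed to between 13078 and 29859 normalized CPM in the 4 libraries named S and to between 187.6 and 436 in the 4 named L, while the 8 colon markers summed to between 228 and 423 in S and between 2747 and 15536 in L. The letter and DMBA therefore cannot be told apart in the comparison of DMBA with control, nor the letter and tamoxifen in that of TAM long with control. The 10 epithelial markers summed to 22.9 and 33.3 normalized CPM in DMBA+TAM and to at least 13565 in each of the other 8 libraries. Fibroblast markers reached 30614 to 31523 in DMBA+TAM against 616 to 2009 elsewhere, macrophage markers 5041 to 5153 against 151 to 347.5, and fat cell markers 2355 to 4828 against 51.1 to 295. Endothelial markers reached 520.5 to 530 in DMBA+TAM against 51.0 to 101 elsewhere. In RNA of whole cultures, fewer cells of a type and less RNA per cell cannot be told apart.

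Fatty acids enter mitochondria as carnitine esters and are shortened there by repeated rounds of beta-oxidation, while very long and dicarboxylic chains are handled in peroxisomes. In fasting the liver turns the resulting acetyl-CoA into ketone bodies, and the intestinal epithelium can make them as well. Nuclear receptors of the PPAR family, which fatty acids activate, are known to induce many of these genes. CPT1A makes the carnitine esters and is the step that malonyl-CoA inhibits. ACADM and ACADL are acyl-CoA dehydrogenases for medium and long chains, and EHHADH is the bifunctional enzyme of peroxisomal beta-oxidation. PDK4 is a kinase that shuts off pyruvate dehydrogenase and so spares glucose. ANGPTL4 is a secreted inhibitor of lipoprotein lipase, PLIN2 coats lipid droplets, and CREB3L3 is a transcription factor of liver and small intestine that is released from the membrane of the endoplasmic reticulum.

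The promoters of 5 of these genes are shown because 3 of them, *Acadm*, *Acadl* and *Ehhadh*, had nearly the same pattern over the libraries, *Cpt1a* rose in DMBA where these 3 fell, and *Creb3l3* had the largest falls of the 8 against control in DMBA, TAM long and DMBA+TAM. The sequences are from RefSeq on GRCm38.p6, which held a promoter for 7 of the 8 genes (*Angptl4* is the other), and each runs 5′ to 3′ on the strand of its gene from 250 bases before the start to 50 after it, 300 bases in all. Capitals mark AGGTCA, the half-site of many nuclear receptors, and GGGCGG, the GC box, on either strand, so that the reverse strand reads as TGACCT and CCGCCC.
Cpt1a: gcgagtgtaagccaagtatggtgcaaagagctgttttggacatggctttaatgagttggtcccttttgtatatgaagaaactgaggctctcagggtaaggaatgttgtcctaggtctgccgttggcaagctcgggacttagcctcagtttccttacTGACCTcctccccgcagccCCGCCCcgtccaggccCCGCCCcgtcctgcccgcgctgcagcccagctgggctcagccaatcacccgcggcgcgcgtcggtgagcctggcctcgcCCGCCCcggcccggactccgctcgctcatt
Acadm: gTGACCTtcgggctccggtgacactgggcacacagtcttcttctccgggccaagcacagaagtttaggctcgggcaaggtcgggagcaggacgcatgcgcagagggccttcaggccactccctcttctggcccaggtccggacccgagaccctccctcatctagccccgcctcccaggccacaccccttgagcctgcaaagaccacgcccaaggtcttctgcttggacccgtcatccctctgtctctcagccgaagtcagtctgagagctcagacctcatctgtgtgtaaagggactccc
Acadl: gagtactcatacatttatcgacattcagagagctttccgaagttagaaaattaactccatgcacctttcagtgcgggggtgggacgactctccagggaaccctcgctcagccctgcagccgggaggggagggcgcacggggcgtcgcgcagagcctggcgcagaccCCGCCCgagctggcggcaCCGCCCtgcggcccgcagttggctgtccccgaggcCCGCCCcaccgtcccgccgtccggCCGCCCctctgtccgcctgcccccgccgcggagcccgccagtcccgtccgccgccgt
Ehhadh: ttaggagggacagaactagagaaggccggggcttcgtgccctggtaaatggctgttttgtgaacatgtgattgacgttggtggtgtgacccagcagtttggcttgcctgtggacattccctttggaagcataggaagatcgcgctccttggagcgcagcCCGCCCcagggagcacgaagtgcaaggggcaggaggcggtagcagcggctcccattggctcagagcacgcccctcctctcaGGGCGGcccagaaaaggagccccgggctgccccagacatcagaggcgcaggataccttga
Creb3l3: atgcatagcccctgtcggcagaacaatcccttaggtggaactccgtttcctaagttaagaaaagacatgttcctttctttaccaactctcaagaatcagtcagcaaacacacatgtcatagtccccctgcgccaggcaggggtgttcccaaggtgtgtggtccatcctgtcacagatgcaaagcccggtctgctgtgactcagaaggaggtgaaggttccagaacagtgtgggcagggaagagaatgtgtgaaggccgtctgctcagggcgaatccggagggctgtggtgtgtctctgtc

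The window of *Cpt1a* (chr19:3323051-3323350, plus strand) held 1 half-site and 3 GC boxes, and that of *Acadm* (chr3:153944594-153944893, minus strand) 1 half-site and no GC box. The window of *Acadl* (chr1:66863260-66863559, minus strand) held 4 GC boxes and that of *Ehhadh* (chr16:21787785-21788084, minus strand) held 2, with no half-site in either. The window of *Creb3l3* (chr10:81098823-81099122, minus strand) held neither. It is 1 of 2 promoters listed for that gene, the only 1 shown and searched here, and it had the lowest share of G and C of the 7 windows, 53% against 60.7% to 70.3%. Over 32851 promoter windows of the same length, 16.3% held AGGTCA and 35.7% held GGGCGG. Also searched on both strands were the direct repeat of that half-site with 1 base between its copies (0.0396% of windows, each also a match of the half-site), TATAAA (13.6%), CACGTG (7.15%) and TGACG (20.8%). None of the 7 windows held the direct repeat or TATAAA, that of *Plin2* held CACGTG, and *Acadm* and *Ehhadh* each had 1 TGACG. No 1 of these motifs was in all 3 windows of *Acadm*, *Acadl* and *Ehhadh*.

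*Creb3l3* had the widest range. It is ENSMUSG00000035041 on the minus strand of chromosome 10, from 81084324 to 81098874. Its libraries had 518 and 685 normalized CPM in control, 189.6 and 156 in TAM short, 12.2 and 10 in DMBA, 9.23 and 6.98 in TAM long, and 1.06 and 2.64 in DMBA+TAM. No 2 groups overlapped. The order was control, TAM short, DMBA, TAM long and DMBA+TAM, and of the neighbours in it only DMBA and TAM long did not differ past the threshold (log2 fold change 0.45 ± 0.23 SE, adjusted p = 0.316). Adjusted p-values are from quasi-likelihood tests in edgeR, adjusted after Benjamini and Hochberg over all 16179 genes, and the threshold is 0.05. *Creb3l3* fell by 1.80 ± 0.20 on the log2 scale in TAM short against control (adjusted p = 0.000424), by 5.76 ± 0.24 in DMBA (3.27e-07), by 6.21 ± 0.25 in TAM long (2.38e-07) and it fell by 8.28 ± 0.33 in DMBA+TAM (3.21e-08). The last rests on 2 and 6 counts: the ratio of the summed counts of control and DMBA+TAM was 311.5, with a 95% counting interval from 158 to 722. The library with 2 counts lay below the level of 3 counts (1.58 normalized CPM there). The level of *Creb3l3* fell in the same groups as the sum of the small intestine markers, as the plot of the markers shows. Of these 10 markers, 5 were at 0 in both DMBA+TAM libraries. Against DMBA, *Anpep* (3.37) and *Mme* (5.03) were called higher in DMBA+TAM on the log2 scale, and *Apob*, *Alpi* and *Slc5a1* lower. Epithelial markers were near 0 in DMBA+TAM, and the part of such cells in the result was not tested.

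**Figure D1:**
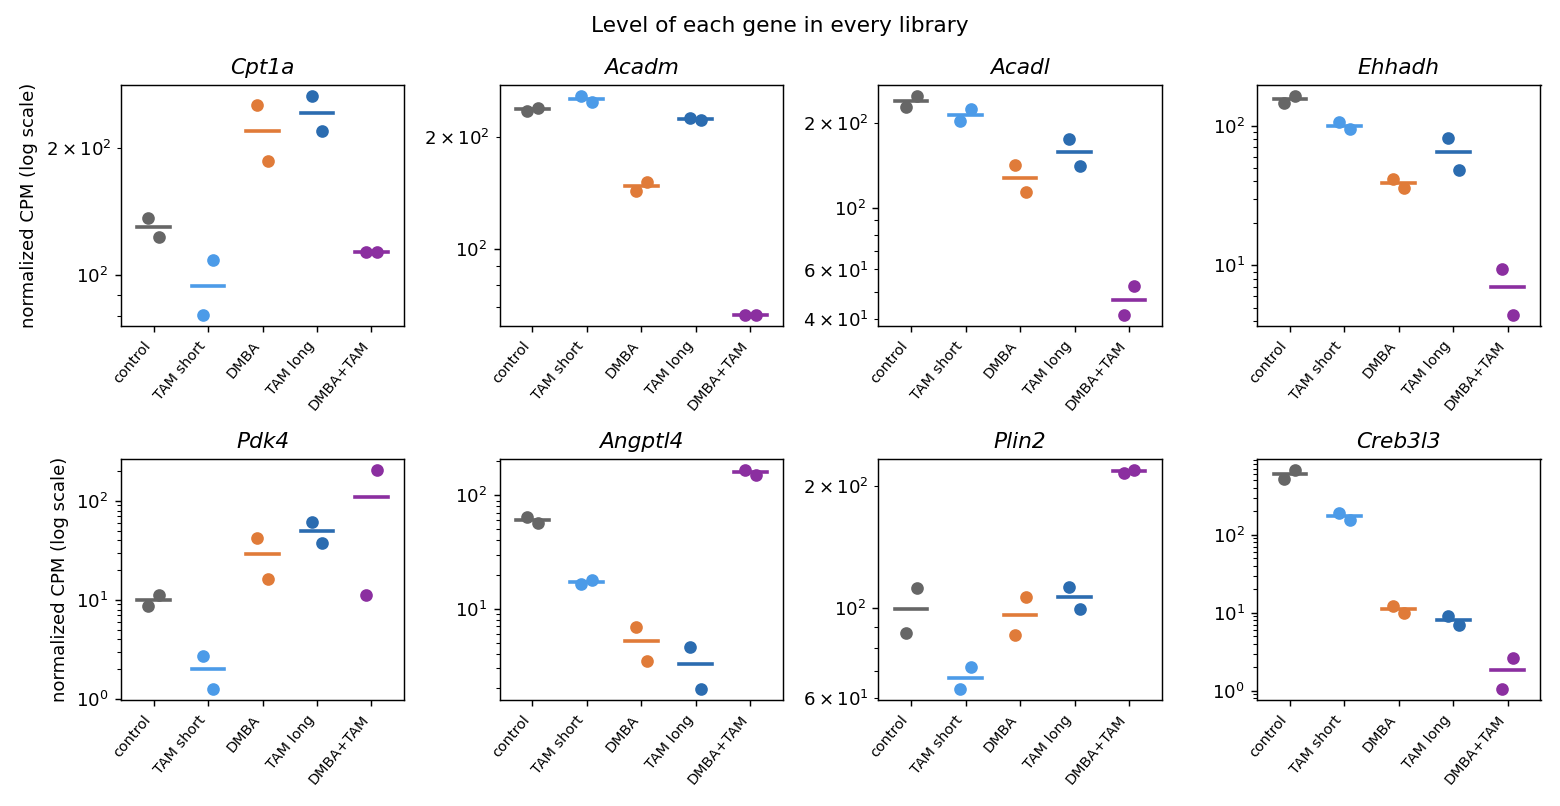
Normalized CPM of each of the 8 genes (log scale) in the 10 libraries by group; points are libraries and lines are means of 2 libraries. *Creb3l3* steps down from 601 in control to 1.85 in DMBA+TAM, *Pdk4* in DMBA+TAM is split between 11.1 and 207, and *Plin2* lies highest in DMBA+TAM.

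*Acadm*, *Acadl* and *Ehhadh* formed a second pattern, with no call in TAM short, lower levels in DMBA and the lowest in DMBA+TAM. *Ehhadh* (ENSMUSG00000022853, chromosome 16, minus strand, 21761287 to 21787844) had 144 and 163 normalized CPM in control, 105 and 94.5 in TAM short, 41.2 and 35.9 in DMBA, 81.3 and 47.9 in TAM long, and 9.50 and 4.41 in DMBA+TAM. No 2 groups overlapped. Against control it fell by 1.99 ± 0.25 on the log2 scale in DMBA (adjusted p = 0.000168), by 1.25 ± 0.24 in TAM long (0.00234) and by 4.50 ± 0.34 in DMBA+TAM (1.91e-06). The call in TAM long is lost with limma on log2(FPKM + 0.1) (-0.98, adjusted p = 0.0595). In DMBA+TAM the fall rests on 18 and 10 counts, and the ratio of summed counts of control and DMBA+TAM was 22.8 (counting interval 15.7 to 34.4). In TAM short its log2 fold change was -0.62 ± 0.24 and did not pass (adjusted p = 0.119), but it passes with only the libraries compared (-0.57, 0.00104). Its TAM short libraries lay below those of control. With no filter on low counts it also passes (0.00208), but that edgeR fit is not relied on. It gives *Pdk4* an adjusted p of 3.27e-21 in DMBA+TAM against DMBA, though the DMBA+TAM libraries had 11.1 and 207 normalized CPM.

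*Acadl* (ENSMUSG00000026003, chromosome 1, minus strand, 66830839 to 66863277) had 229.9 and 251 normalized CPM in control, 205 and 225 in TAM short, 142 and 114 in DMBA, 175 and 141 in TAM long, and 41.2 and 52.4 in DMBA+TAM. Only DMBA and TAM long overlapped. It fell by 0.91 ± 0.16 on the log2 scale in DMBA (adjusted p = 0.00138), by 0.60 ± 0.16 in TAM long (0.0126) and by 2.36 ± 0.18 in DMBA+TAM (1.89e-06). The call in TAM long is lost when libraries are scaled by size only (-0.28, adjusted p = 0.237) and without replicate 2 of control or of TAM long (adjusted p = 0.0819 and 0.0972).

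*Acadm* (ENSMUSG00000062908, chromosome 3, minus strand, 153922357 to 153944632) had 235 and 239 normalized CPM in control, 258 and 248 in TAM short, 143 and 152 in DMBA, 225 and 221 in TAM long, and 66.5 in both libraries of DMBA+TAM. It fell by 0.68 ± 0.10 on the log2 scale in DMBA (adjusted p = 0.000438) and by 1.83 ± 0.11 in DMBA+TAM (3.29e-07). It was the single gene of the 8 called between TAM long and DMBA, where it was 0.60 ± 0.10 higher in TAM long (adjusted p = 0.0197). That call is lost when either library of TAM long is left out (adjusted p = 0.147 and 0.0783) or with only the 4 libraries compared (0.174). Its value in TAM long against control was -0.09 (adjusted p = 0.497) and 0.23 with scaling by library size only.

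*Cpt1a* (ENSMUSG00000024900, chromosome 19, plus strand, 3323301 to 3385732) was higher in the libraries named L. It had 136 and 123 normalized CPM in control, 80.6 and 109 in TAM short, 253 and 186 in DMBA, 265 and 219 in TAM long, and 114 in both of DMBA+TAM. Every library of DMBA and TAM long lay above every other library. The 6 smooth muscle markers were also highest in these 4 libraries, with sums of 7160 to 12836 normalized CPM against 1209 to 2280 in those named S and 1464 to 1605 in DMBA+TAM, and the part of such cells in this and the other differences between L and S was not tested. Against control it rose by 0.76 ± 0.18 on the log2 scale in DMBA (adjusted p = 0.00767) and by 0.90 ± 0.18 in TAM long (0.00323). The call in DMBA is lost without DMBA replicate 1 (0.50, adjusted p = 0.0533) or control replicate 2 (0.68, 0.0717). Its log2 fold change in DMBA+TAM was -0.19 ± 0.19 (adjusted p = 0.401), and 0.30 with scaling by library size only, so no direction is given.

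*Pdk4* (ENSMUSG00000019577, chromosome 6, minus strand, 5483351 to 5496309) was uneven between libraries of a group. It had 8.71 and 11.3 normalized CPM in control, 2.71 and 1.26 in TAM short, 42.2 and 16.4 in DMBA, 61.9 and 37.7 in TAM long, and 11.1 and 207 in DMBA+TAM. The 2 libraries of DMBA+TAM lie on either side of all those of DMBA and TAM long. The fit called it 3.46 ± 0.95 higher in DMBA+TAM than in control on the log2 scale (adjusted p = 0.0094), but without DMBA+TAM replicate 2 the value was 0.12 (adjusted p = 0.908), and the call is also lost without either control library (0.0795 and 0.0603). The 6 markers of skeletal muscle, a tissue known to make PDK4, summed to 6941 normalized CPM in DMBA+TAM replicate 2, with *Myh4* the highest, and to 5.28 in replicate 1. In the other 8 libraries the sum was 3.37 to 19.3, and the part of muscle in the result was not tested. Against control, *Pdk4* had log2 fold changes of 1.56 ± 0.91 in DMBA (adjusted p = 0.186) and 2.32 ± 0.91 in TAM long (0.0625), and neither passed; both pass with only the libraries compared (0.0381 and 0.000584).

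*Angptl4* (ENSMUSG00000002289, chromosome 17, minus strand, 33773750 to 33781575) fell in 3 of the treated groups and rose in DMBA+TAM. It had 64.0 and 56.6 normalized CPM in control, 16.4 and 18 in TAM short, 6.88 and 3.48 in DMBA, 4.57 and 1.97 in TAM long, and 168 and 150.2 in DMBA+TAM. Only DMBA and TAM long overlapped. Against control it fell by 1.81 ± 0.29 on the log2 scale in TAM short (adjusted p = 0.00333), by 3.51 ± 0.32 in DMBA (2.59e-05) and by 4.18 ± 0.34 in TAM long (1.15e-05), and in DMBA+TAM it was 1.40 ± 0.28 higher (0.00152). The call in TAM short is lost when either of its libraries is left out (adjusted p = 0.0549 and 0.0565).

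*Plin2* (ENSMUSG00000028494, chromosome 4, minus strand, 86648386 to 86670060) changed least in DMBA and TAM long. It had 87.0 and 112 normalized CPM in control, 63.3 and 71.7 in TAM short, 85.9 and 107 in DMBA, 113 and 99.7 in TAM long, and 215 and 219.8 in DMBA+TAM. The libraries of DMBA+TAM lay above all others, and control, DMBA and TAM long overlapped. It was 1.13 ± 0.16 higher in DMBA+TAM than in control on the log2 scale (adjusted p = 0.00015) and fell by 0.56 ± 0.16 in TAM short (0.0427), a call that is lost without control replicate 2 (-0.37, adjusted p = 0.289), without either TAM short library (0.238 and 0.145) and with scaling by library size only (0.0557). Fat cells and macrophages, which are known to make ANGPTL4 and PLIN2, had their markers highest in the same 2 libraries of DMBA+TAM, with *Fabp4* (2101 and 829 normalized CPM) and *Lyz2* the highest of their lists. No library of the other groups had as much of either list, the defining markers of brown fat were at or near 0 throughout, and the part of these cells in the result was not tested. Fibroblast and endothelial markers were also highest in the 2 libraries of DMBA+TAM.

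**Figure D2:**
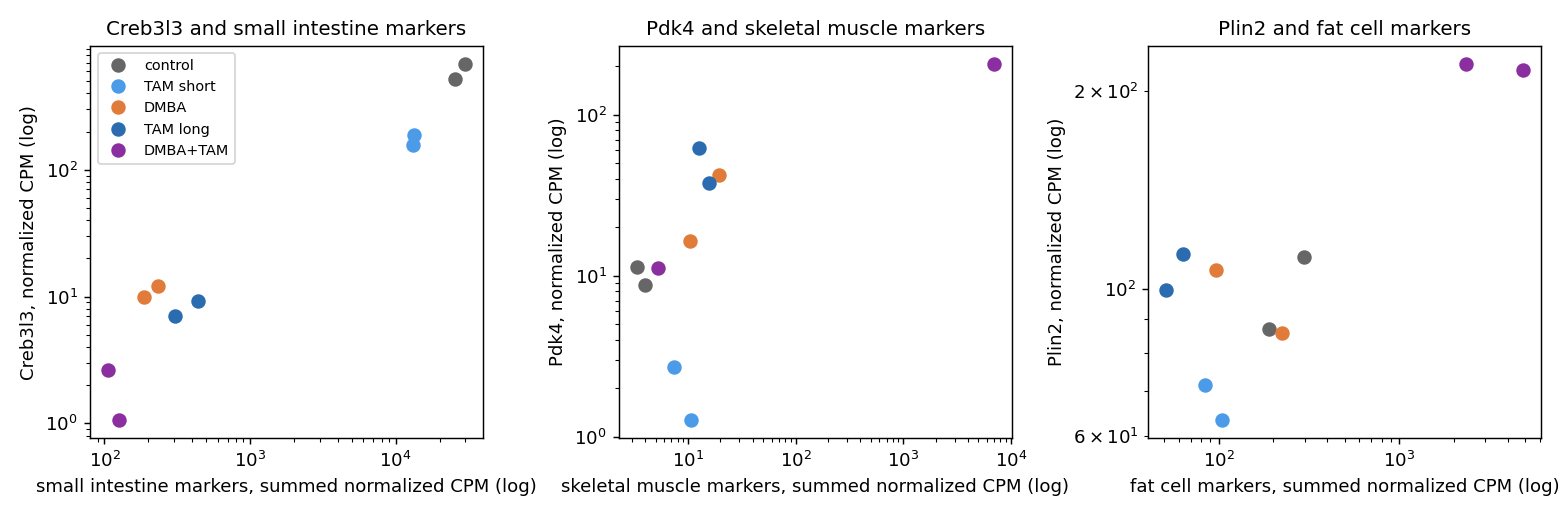
Normalized CPM of *Creb3l3*, *Pdk4* and *Plin2* against the summed normalized CPM of small intestine, skeletal muscle and fat cell markers (both axes log scale), each point 1 library coloured by group. *Creb3l3* and the sum of small intestine markers are both lowest in DMBA+TAM. DMBA+TAM replicate 2 stands alone with 6941 for muscle markers and 207 for *Pdk4*. Both DMBA+TAM libraries are highest for the sum of fat cell markers and for *Plin2*.

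Counted over the 8 genes, DMBA against control had 1 higher and 5 lower, beside 24.5% of all tested genes higher and 23.3% lower. TAM long against control had 1 higher and 4 lower, beside 23.2% and 22.8%. With scaling by library size only it had 3 and 3, with *Plin2* (0.42, adjusted p = 0.0322) and *Pdk4* (2.64, 0.0418) called higher. TAM short against control had 0 higher and 3 lower, beside 6.52% and 7.80%. For TAM short, no gene of the 8 was higher at an unadjusted p under 0.05 either, nor with DESeq2. DMBA+TAM against control had 3 higher and 4 lower, beside 29.0% and 35.3%. The medians of the 8 log2 fold changes were -0.80, -0.35, -0.59 and -1.01 in these comparisons, and those of all tested genes 0.07, 0.05, -0.04 and -0.17. All of these comparisons share the control libraries. Scaling by library size only moved the median of all genes to 0.31 in DMBA+TAM, 0.37 in TAM long, 0.38 in DMBA and 0.04 in TAM short, and the share of higher among all calls from 45.1% to 62.5%, 50.5% to 72.1%, 51.2% to 71.2% and 45.5% to 58.6%.

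**Figure D3:**
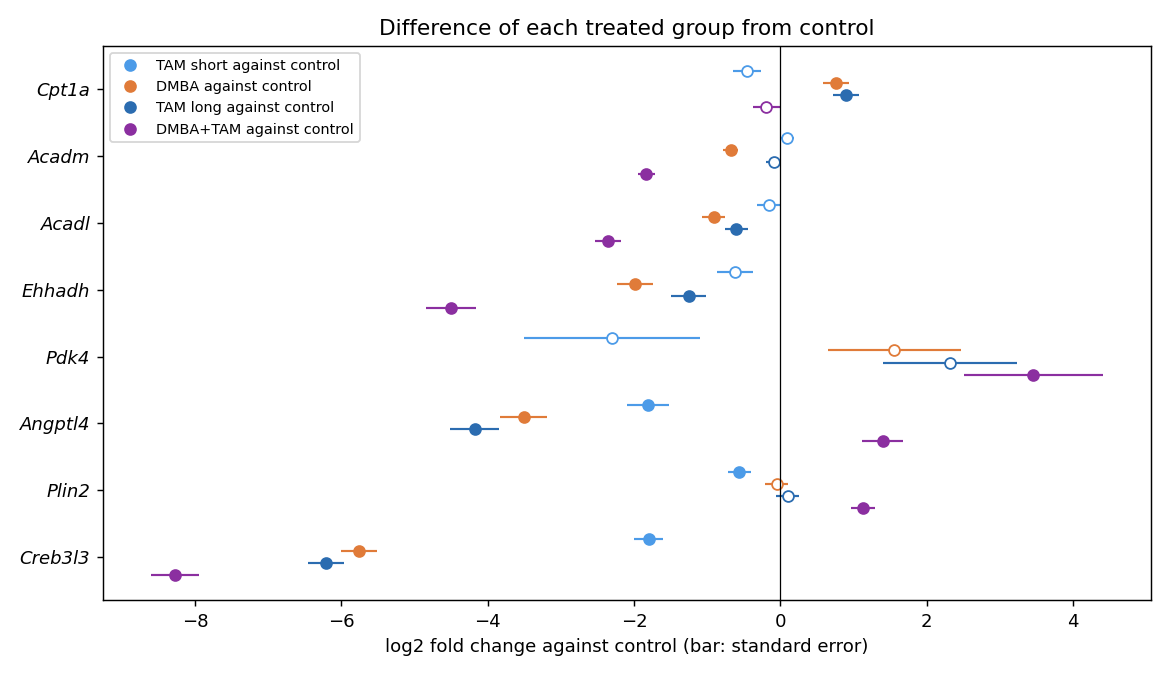
Log2 fold change of each gene against control in 4 treated groups, from the fit on all libraries; bars are standard errors, filled points passed the threshold of 0.05 and open points did not. *Creb3l3* reaches -8.28 in DMBA+TAM, and *Angptl4* is lower than control in 3 groups and higher in DMBA+TAM.

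DMBA+TAM was also compared with the other treated groups. Against DMBA it had 2 of the 8 higher and 5 lower, beside 25.2% and 29.9% of all genes, and against TAM long 2 and 5, beside 25.3% and 29.9%; in both, *Angptl4* and *Plin2* were higher and *Cpt1a*, *Acadm*, *Acadl*, *Ehhadh* and *Creb3l3* lower. *Angptl4* was higher by 4.91 ± 0.34 on the log2 scale than in DMBA (adjusted p = 1.42e-06) and by 5.58 ± 0.35 than in TAM long (7.83e-07), and *Cpt1a* was -0.95 ± 0.19 (0.00204) and -1.09 ± 0.19 (0.000845). Against TAM short, 3 were higher and 4 lower, beside 29.3% and 33.8%, and *Cpt1a* was not called (0.26 ± 0.19, adjusted p = 0.253), but is called higher when libraries are scaled by size only (0.67, 0.026) and with limma on log2(FPKM + 1) (0.65, 0.0275). *Pdk4* was among the higher there, at 5.77 ± 1.15 (adjusted p = 0.00151), or 2.43 without DMBA+TAM replicate 2 (0.047). Against DMBA and TAM long *Pdk4* was not called (adjusted p = 0.089 and 0.277), and each of these rests on which DMBA+TAM library is kept. Without replicate 1 it is called higher in both (2.81, 0.00197, and 2.05, 0.00889), and without replicate 2 it is -1.42 against DMBA (0.148) and called lower against TAM long (-2.17, 0.0384).

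An interaction was tested as the log2 fold change of DMBA+TAM against DMBA minus that of TAM long against control. DMBA and TAM long carry the letter L, control the letter S and DMBA+TAM neither. The agents and the letter therefore cannot be told apart in this contrast. The interaction was past the threshold for 7 of the 8, with 3 higher and 4 lower, beside 21.6% and 26.5% of all genes. *Angptl4* had 9.09 ± 0.48 (adjusted p = 4.29e-07), *Creb3l3* 3.68 ± 0.66 (0.00122) and *Plin2* 1.08 ± 0.22 (0.00293), while *Cpt1a* had -1.85 ± 0.27 (0.000312) and *Acadm* -1.06 ± 0.15 (0.000236). *Acadl* (-0.84 ± 0.24, 0.0152) and *Ehhadh* (-1.26 ± 0.45, 0.0405) were lower too. *Ehhadh* is lost with only the groups compared (adjusted p = 0.0569), with limma on log2(FPKM + 1) and log2(FPKM + 0.1) (0.0705 and 0.055) and without any 1 of 5 libraries, with DMBA+TAM replicate 2 moving it most (-0.75, adjusted p = 0.242), and *Creb3l3* without that same library (2.85, 0.0808). *Acadl* is lost without control replicate 1 (adjusted p = 0.0564), TAM long replicate 1 (0.0543) or DMBA+TAM replicate 1 (0.0682). The level of *Creb3l3* itself was lowest in DMBA+TAM, on 2 and 6 counts, where 3 counts are 1.58 and 1.32 normalized CPM. The 2 single falls added together would lie below that level. A positive value for *Creb3l3* was thus close to given at this depth and is not read as a smaller joint fall. *Pdk4* had -0.41 ± 1.23 (0.811), which turned to -3.71 without DMBA+TAM replicate 2 (0.0087).

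Between the groups that share the letter L few genes passed. TAM long against DMBA had 1 higher and 0 lower with edgeR and with DESeq2, beside 1.24% and 1.46%, and no other member passed an unadjusted p of 0.05 downward. DMBA against TAM short had 3 higher and 5 lower, beside 24.5% and 21.8%, and TAM long against TAM short 3 and 2, beside 22.0% and 20.3%. In the latter DESeq2 also calls *Acadl* (-0.44, adjusted p = 0.0378) and *Ehhadh* (-0.63, 0.039) lower. Without either TAM short library, *Pdk4* is lost in both (adjusted p = 0.0558 to 0.123) and *Plin2* in the first (0.162 and 0.0623). In DMBA against TAM short *Pdk4* is also lost without DMBA replicate 1 (0.0888) and *Plin2* without DMBA replicate 2 (0.128), and in TAM long against TAM short *Plin2* is lost without replicate 1 of either group (0.08 and 0.0609). When the 4 libraries named L were compared with the 4 named S, 3 of the 8 were higher and 5 lower, beside 30.4% and 27.5%. *Cpt1a* (1.06 ± 0.13 on the log2 scale, adjusted p = 9.44e-05), *Pdk4* (3.09 ± 0.73, 0.00477) and *Plin2* (0.31 ± 0.11, 0.0379) were higher in L, and *Creb3l3* (-5.08 ± 0.17, 2.97e-08), *Angptl4* (-2.94 ± 0.24, 5.79e-06), *Ehhadh* (-1.31 ± 0.17, 0.000141), *Acadl* (-0.68 ± 0.11, 0.000682) and *Acadm* (-0.43 ± 0.07, 0.000547) lower. *Acadm* does not pass when libraries are scaled by size only (-0.16, adjusted p = 0.0804), and *Plin2* does not with only the libraries compared (0.0521) or without any 1 of 6 of the 8 libraries (0.0502 to 0.159). The values of L and S did not overlap for 7 of the 8, beside 45.9% of all tested genes. *Plin2* did overlap, from 63.3 to 112 in S and from 85.9 to 113 in L.

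TAM long against DMBA minus TAM short against control, a contrast between the letters whose first term sets tamoxifen against DMBA and so holds both agents, was past the threshold for *Ehhadh* (1.37 ± 0.34, adjusted p = 0.0495) and *Creb3l3* (1.35 ± 0.30, 0.0321), 2 higher and 0 lower of 8 (0 lower also with DESeq2 and at an unadjusted p under 0.05), beside 2.93% and 2.78% of all genes. Both calls are lost with scaling by library size only (0.0787 and 0.0538) and, of the 8 libraries left out in turn, without any 1 of 6 for *Ehhadh* (0.0763 to 0.228) and any 1 of 7 for *Creb3l3* (0.0503 to 0.162).

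Levels of different genes were compared per length, as the authors' FPKM. In control *Creb3l3* was first (479 ± 82.8 FPKM, SD, n = 2), followed by *Acadm* (252 ± 3.39) and *Acadl* (158 ± 5.99), and *Pdk4* was last (5.67 ± 0.913). In DMBA and TAM long *Acadm* was first (194 ± 11.5 and 296 ± 6.41) and *Angptl4* last (3.67 ± 2.02 and 2.29 ± 1.31). In DMBA+TAM *Plin2* (300.1 ± 3.54) and *Angptl4* (125.5 ± 10.5) led and *Creb3l3* was last (2.07 ± 1.25). The length that these FPKM imply is 794 bases for *Acadm*, where the table lists 2047, and is the listed one for *Cpt1a* (4300) and *Ehhadh* (3018). With the listed lengths the first and last places given here are the same, and *Acadl* passes *Acadm* in control (125.5 against 116 normalized CPM per kilobase).

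Over the 10 libraries, log2(normalized CPM + 1) of *Acadm*, *Acadl* and *Ehhadh* correlated with Pearson's r from 0.95 to 0.97, as a description, since the points are 5 groups of 2 libraries. *Plin2* had r from -0.88 to -0.83 with these 3, and *Cpt1a* from 0.04 to 0.10. The genes most like *Ehhadh* among 11276 were *Hadh* (r = 0.995), *Mrps5* and *Chkb*; those most like *Creb3l3* were *Pipox* (0.996), *Reep6* and *Gnb1*. Those most like *Cpt1a* were *Cntnap1* (0.970) and *Abcc3*, and those most like *Acadl* were *Mcu* (0.996), *Mfsd6l* and *Tamm41*. *Atp11b* (0.994), *Ttc4* and *Sft2d2* were most like *Acadm*, *Sema7a* (0.984), *Arhgap19* and *Acp2* most like *Angptl4*, *Dhrs3* (0.971), *Lipa* and *Igfbp3* most like *Plin2*, and *Zfp809* (0.934), *Speg* and *Sptb* most like *Pdk4*.

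*Bdh1*, which makes beta-hydroxybutyrate, had 128 and 137 normalized CPM in control, 114 and 119 in TAM short, 144 and 117 in DMBA, 136 and 119 in TAM long, and 2.11 and 0.441 in DMBA+TAM. The libraries of DMBA+TAM lay far below the rest, on 4 and 1 counts, so that the size of the fall is loosely set. It fell by 6.76 ± 0.32 on the log2 scale in DMBA+TAM against control (adjusted p = 7.94e-08) and did not pass in DMBA (0.969) or TAM long (0.817). Of the 9 genes of ketone body synthesis and use, 4 were higher and 1 lower in DMBA and 1 and 5 in DMBA+TAM, both against control. In TAM long 4 were higher and 0 lower, also with DESeq2 and at an unadjusted p under 0.05. Beside these and the lists below, the shares of all tested genes called higher and lower were 6.52% and 7.80% in TAM short and 24.5% and 23.3% in DMBA. They were 23.2% and 22.8% in TAM long and 29.0% and 35.3% in DMBA+TAM. The median log2 fold changes of all tested genes were -0.04, 0.07, 0.05 and -0.17 in that order of groups.

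Among 20 other genes of mitochondrial fatty acid oxidation, 1 was higher and 3 lower in TAM short, 2 and 13 in DMBA, 2 and 9 in TAM long, and 1 and 18 in DMBA+TAM, each against control. Their median log2 fold changes were -0.37, -0.54, -0.32 and -1.52. With scaling by library size only the counts were 1 and 2, 3 and 7, 3 and 6, and 2 and 15, and the median in TAM long was 0. *Slc25a20*, which carries the carnitine esters inward, rose in DMBA (0.86 ± 0.19, adjusted p = 0.00422), TAM long (1.43 ± 0.19, 0.000241) and TAM short (1.09 ± 0.19, 0.0046, or 0.0609 without control replicate 1) and fell by 1.39 ± 0.21 in DMBA+TAM (0.00027). *Cpt2*, the carnitine transferase of the inner membrane, fell by 0.95 ± 0.20 in DMBA (0.00333, or 0.0509 with limma on log2(FPKM + 1)) and by 2.76 ± 0.24 in DMBA+TAM (4.25e-06). *Acadvl*, the dehydrogenase for very long chains, fell by 0.62 ± 0.16 in DMBA (0.00933, or 0.22 with scaling by library size only) and by 1.57 ± 0.18 in DMBA+TAM (3.04e-05). *Acads*, the dehydrogenase for short chains, rose by 1.81 ± 0.24 in DMBA (0.000229), while *Acsl5*, which activates fatty acids, fell by 4.90 ± 0.20 (2.97e-07).

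Of 19 peroxisomal genes, 5 were lower in TAM short, 14 in DMBA, 16 in DMBA+TAM and 12 in TAM long, with medians of -0.49, -1.34, -2.17 and -1.11. In DMBA+TAM 1 was higher, and in each of the other 3 groups 0, where 1 was higher at an unadjusted p under 0.05. DESeq2 called 1 higher in DMBA and 0 in TAM short and TAM long. The fatty acid transporter *Slc27a2* fell by 3.36 ± 0.25 on the log2 scale in DMBA (adjusted p = 6.89e-06) and by 7.40 ± 0.52 in DMBA+TAM (1.05e-06).

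Of 12 receptors and coactivators of fatty acid oxidation, 4 were higher and 4 lower in DMBA, and 1 and 8 in DMBA+TAM. With scaling by library size only these were 6 and 2, and 2 and 5. *Ppargc1a*, a coactivator of mitochondrial genes, fell in all 4 treated groups, by 1.68 ± 0.21 on the log2 scale in TAM short (adjusted p = 0.000758), by 1.27 ± 0.20 in TAM long (0.000736), by 1.33 ± 0.20 in DMBA (0.000557) and by 5.88 ± 0.37 in DMBA+TAM (4.7e-07). *Ppara*, the receptor best known for inducing these genes in liver, had 20 and 12.2 normalized CPM in control and 0.528 and 1.32 in DMBA+TAM, where it fell by 4.05 ± 0.93 (0.00355). Both DMBA+TAM values lie at or below the level of 3 counts there (1.58 and 1.32 normalized CPM), so that the size of this fall is loosely set. *Pparg* rose in DMBA (1.82 ± 0.38, 0.00342) and TAM long (2.36 ± 0.38, 0.000833). Of 15 tested genes that PPAR receptors are known to induce, 1 was higher and 6 lower in TAM short, 4 and 6 in DMBA, 4 and 6 in TAM long, and 3 and 6 in DMBA+TAM. *Fabp1*, the fatty acid binding protein of liver and small intestine, had 1592 and 2754 normalized CPM in control and at most 5.2 in every other library.

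The partners of *Pdk4* and *Angptl4* were measured as well. Of 13 genes of pyruvate dehydrogenase and its kinases, 1 was higher and 8 lower in DMBA, and 2 and 10 in DMBA+TAM, or 3 and 3, and 2 and 9, with scaling by library size only. *Pdha1*, the subunit that PDK4 phosphorylates, fell by 0.61 ± 0.14 on the log2 scale in DMBA (adjusted p = 0.00649) and by 0.87 ± 0.15 in DMBA+TAM (0.00055), and both calls are lost with that scaling (0.127 and 0.0605). *Pdk2*, a kinase of the same family, fell by 1.30 ± 0.19 in TAM short (0.00177), by 1.05 ± 0.18 in DMBA (0.0012) and by 1.41 ± 0.19 in TAM long (0.000241). *Lpl*, the lipase that ANGPTL4 inhibits, had 13.7 and 23.5 normalized CPM in control, 112 and 29.5 in DMBA, 77.7 and 60.1 in TAM long, and 704 and 381 in DMBA+TAM. It was higher by 4.87 ± 0.60 in DMBA+TAM (5.69e-05), where *Angptl4* rose too. In DMBA (1.93 ± 0.54, 0.0154) and TAM long (1.89 ± 0.54, 0.0175) it rose while *Angptl4* fell, but its calls there are lost without control replicate 1 (0.126 and 0.137), and in DMBA the value is 0.65 without DMBA replicate 1 (0.21).

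Of 16 tested genes of lipolysis and lipid droplets, 6 were higher and 6 lower in DMBA, 5 and 6 in TAM long, and 10 and 4 in DMBA+TAM. In TAM short 2 were lower and 0 higher, also 0 with DESeq2 and at an unadjusted p under 0.05. *Plin1* and *Plin4*, relatives of *Plin2* that are known from fat cells, were higher by 6.12 ± 0.89 and 4.46 ± 0.54 on the log2 scale in DMBA+TAM (adjusted p = 0.000176 and 4.78e-05), and *Plin3* fell by 3.48 ± 0.14 (3.07e-08). *Plin1* is also in the list of fat cell markers. Among 12 genes of fatty acid synthesis, 5 were higher and 3 lower in DMBA, and 6 and 4 in DMBA+TAM. *Acacb*, whose product makes the malonyl-CoA that inhibits CPT1A, rose by 2.66 ± 0.46 in DMBA (0.00111), by 2.50 ± 0.46 in TAM long (0.00165), where *Cpt1a* rose too, and by 2.64 ± 0.49 in DMBA+TAM (0.000993), where *Cpt1a* was not called. Of 25 tested relatives of the 8 genes, 9 were higher and 9 lower in DMBA, beside 24.5% and 23.3% of all tested genes. In DMBA+TAM 7 were higher and 12 lower, beside 29.0% and 35.3%. *Creb3l1*, a relative of *Creb3l3*, rose by 3.44 ± 0.20 in DMBA (1.82e-06).

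**Figure D4:**
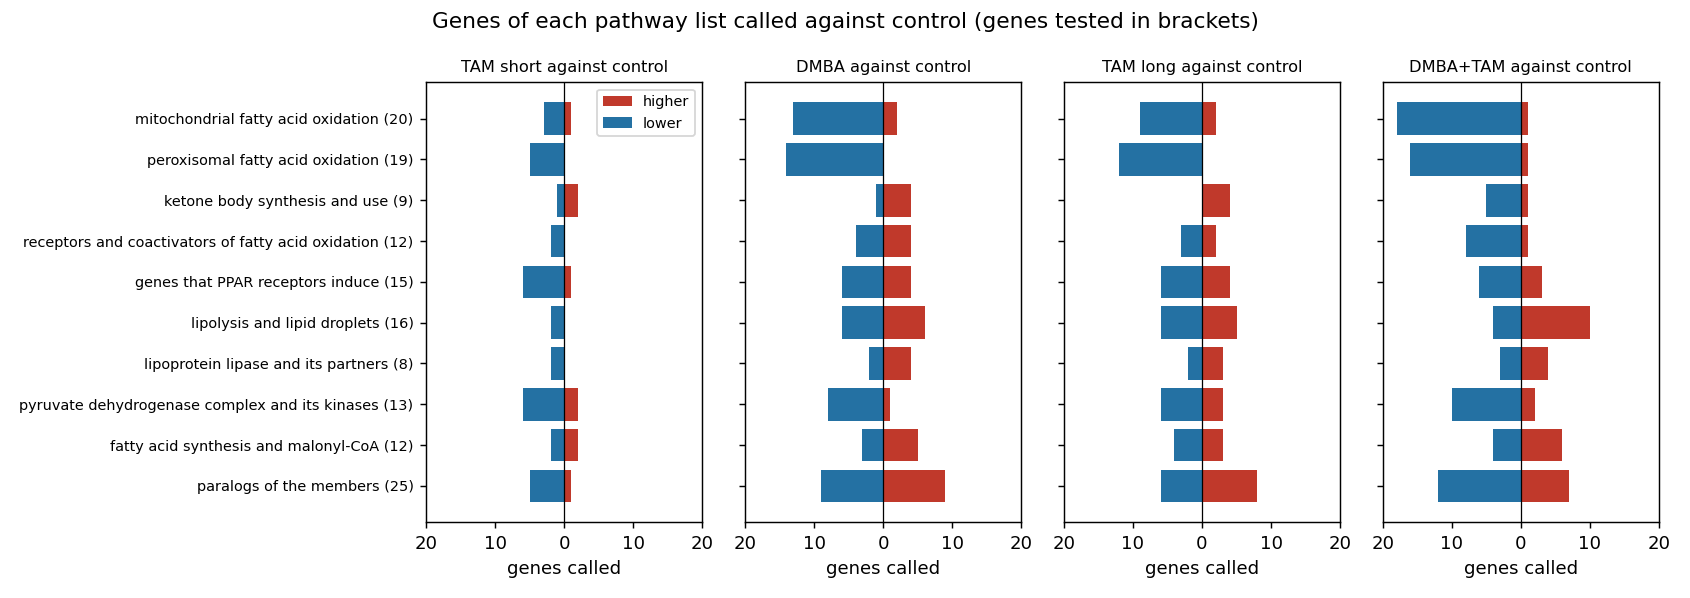
Number of genes of each pathway list that were called higher (right) or lower (left) than control in 4 treated groups, with the number of genes tested in brackets. In DMBA+TAM, 18 of 20 mitochondrial and 16 of 19 peroxisomal genes were lower, beside 35.3% of all tested genes. There 10 of 16 genes of lipolysis and lipid droplets were higher, beside 29.0%.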

How the data were processed

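Polyadenylated RNA of intestinal organoids was sequenced by the authors with NEBNext Ultra libraries, for which no strand setting is stated. The authors deposited 1 table with raw counts and FPKM per gene and library, on GRCm38 per the submitters' processing notes; columns with the authors' own fold changes and p-values were not used. The deposited FPKM rest on a gene length that differs from the listed one for most genes (37.83% of values match within 1%), so levels between genes were also set per listed length. 5 lines without a gene ID were left out of library sizes and tests.

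Counts were filtered with filterByExpr, scaled by TMM and fitted with edgeR 4.0.16 (R 4.3.3) as 5 group means over all 10 libraries, with quasi-likelihood tests and Benjamini-Hochberg adjustment over 16179 genes at a threshold of 0.05. The script was tested on simulated data. Alternatives were scaling by library size, no filter, DESeq2 1.42.0, a replicate block, only the groups compared, limma 3.58.1 on log2(FPKM + 1) and log2(FPKM + 0.1), and each replicate left out in turn, where a lone library is taken to vary like the other groups. Depth limits precision most in DMBA+TAM, where 3 counts are 1.58 and 1.32 normalized CPM against at most 0.379 elsewhere; counting intervals are 95% and cover counting error only.

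Named were the 8 members, 11 genes of the pathway chosen by name, up to 3 of the largest rises and falls per pathway list (mean of at least 50 counts), and the 3 genes most like each member (mean of at least 5 normalized CPM). Some genes that this rule names are not reported here. The members, lists and tests were chosen with earlier results of these data known.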

Additional observations from a re-analysis of the deposited data

Results flagged for a closer look

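The interaction, the log2 fold change of DMBA+TAM against DMBA minus that of TAM long against control, was past the threshold of edgeR's quasi-likelihood test in 7 of the 8 genes. It was -1.85 for *Cpt1a*, -1.06 for *Acadm*, -0.84 for *Acadl*, -1.26 for *Ehhadh*, 9.09 for *Angptl4*, 1.08 for *Plin2* and 3.68 for *Creb3l3*. The value of *Creb3l3* rests on 2 and 6 counts in DMBA+TAM, a depth too low to measure the 2 single falls added together. TAM long against DMBA minus TAM short against control, which holds both agents, was past the threshold in 2 genes, at 1.37 for *Ehhadh* and 1.35 for *Creb3l3*. The cultures of DMBA+TAM had epithelial markers near 0, and the letter goes with DMBA and with the long tamoxifen group; their part in these values was not tested.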

How the results depend on the processing

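Of 1240 results of the 8 genes under alternatives, 1103 kept their direction and side of the threshold, 75 lost and 39 gained a call, and 23 changed sign; DESeq2 kept 101 of 104. The cause of the changes was not tested. With scaling by library size only, and with limma on log2(FPKM + 1) and on log2(FPKM + 0.1), *Plin2* in DMBA against control turned to 0.26 in each, *Acadm* in TAM long turned to 0.23 against control and 0.05 against TAM short in each, and *Cpt1a* in DMBA+TAM against control to 0.30, 0.29 and 0.30. None of these was called in the main analysis. With 1 library left out, *Plin2* against control ranged from -0.23 to 0.14 in DMBA (above 0 without control 2 or DMBA 1, the latter at 0.08) and from -0.08 to 0.28 in TAM long (below 0 without control 1, and 0 without TAM long 1). TAM long against DMBA ranged from -0.06 (without DMBA 2) to 0.38 for *Cpt1a*, with 0 without TAM long 1, and from -0.01 (without DMBA 1) to 0.31 for *Plin2*. *Pdk4* in DMBA+TAM ranged from -1.42 to 2.81 against DMBA and from -2.17 to 2.05 against TAM long, in both below 0 without DMBA+TAM 2, and its interaction from -3.71 to 0.51, above 0 without DMBA 1 (0.46) or DMBA+TAM 1.

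Over all genes tested, 2317 of 16179 were called in TAM short against control. With no filter this was 3294 of 26392, and with only the groups compared 4317 of 13928. In TAM long against DMBA the calls went from 437 to 1615 and 29. In TAM long against DMBA minus TAM short against control (the contrast between the letters) 924 were called, and 2025 with no filter. This was 840 with library size only and 801 and 602 with the limma fits. Calls with no filter are not relied on, as given with *Ehhadh*. The number of the 8 genes called in TAM short against control went from 3 to 6 with no filter and to 6 with only the groups compared. In TAM long against DMBA it went from 1 to 3 and 0. In the contrast between the letters it went from 2 to 5 with no filter and 0 with library size only and with each limma fit. With 1 library left out it ranged from 1 to 3 in TAM short against control, 3 to 6 in TAM long against TAM short, 0 to 1 in TAM long against DMBA and 0 to 3 in the contrast between the letters, and in the other comparisons from 5 to 6 in DMBA and 4 to 5 in TAM long against control, 6 to 7 in DMBA+TAM against control, 7 to 8 against DMBA and against TAM long and 7 in each fit against TAM short, 6 to 7 in DMBA against TAM short (8 with all libraries), 7 to 8 in L against S, and 5 to 7 in the interaction. The order of groups by level was kept for 5 of 8 genes with library size only and for 5 by FPKM, and 12 of the 24 genes most like a member were also among the top 3 by FPKM. With library size only, calls against control went from 2 to 1 among receptors and from 7 to 4 among PPAR-induced genes in TAM short, and from 9 to 5 (TAM long) and 8 to 5 (TAM short) among pyruvate dehydrogenase genes. With the replicate number as a block, the calls were the same except for *Ehhadh* in TAM long against TAM short (-0.65, adjusted p = 0.0305, edgeR), giving 6 in place of 5. Same-numbered libraries had a correlation of deviations of 0.26 between DMBA and TAM long, and from -0.041 to 0.087 between the other pairs of groups. The numbers thus do not pair the samples across all groups. Depth limits DMBA+TAM most, and 2 libraries in a group limit every comparison.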
